A study of Mus musculus with 10 samples.

Results

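The 10 genes described here are the transcription factor Nrf2 (gene Nfe2l2) and 9 genes known as its antioxidant targets: Hmox1, Nqo1, Gclc, Gclm, Txnrd1, Srxn1, Slc7a11, Gstm1 and Gsta4. They were chosen by gene name, with earlier results of these data known. Each had 1 row among the 29583 rows of the gene table, and all 10 passed the filter on low counts. RNA was sequenced from MC3T3-E1 cells (subclone 14), an osteoblast precursor line from mouse skull, which the sample labels also describe as newborn C57BL/6 bone marrow mesenchymal stem cells. The comparison asked how gene expression differed in cells treated with β-ecdysterone, a plant sterol. All cells of the dose series were grown in standard medium, with 100, 150 or 200 μM β-ecdysterone in the 6 treated libraries and 0 μM in the 2 control libraries, for 5 or 10 days. There was 1 library for each dose and day, so the 3 doses served as the replicates of treated cells within a day. A further 2 libraries, A-5 and B-4, were labelled as untreated without a time. Libraries of different dose or day must come from different dishes, but no label says that these were independent experiments. The p-values measure the spread between these libraries, which includes any difference between the doses. No dose and day was repeated, so the spread between repeats of 1 condition is not known.

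Nrf2 is a basic leucine zipper transcription factor. In resting cells Keap1 binds it and directs it to degradation. When oxidants or electrophiles modify Keap1, Nrf2 accumulates, pairs with a small Maf protein and binds antioxidant response elements near genes for glutathione synthesis, thioredoxin reduction, heme breakdown and quinone reduction. In bone cells this pathway is known for limiting oxidative damage, and its activity is set largely by the amount of Nrf2 protein, which RNA sequencing does not measure.

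The antioxidant response element is the sequence through which Nrf2 acts, so promoters of the members were searched for it. RefSeq promoter windows of 300 bases (GRCm38.p6, 250 bases before and 50 bases after each start) were at hand for 7 of the 10 members, in 10 windows. Hmox1, Gclc and Gsta4 had no window and were not searched. The core TGACNNNGC was searched on both strands. It occurred in 4 of the 10 windows, 1 each for Nfe2l2, Gclm, Txnrd1 and Srxn1, and in 12.4% of all 32851 windows. A second form, TGANTCAGC, which can overlap the first, occurred in 1.19% of all windows and in 1 member window, that of Srxn1. The fragments with a match before the start are shown 5′ to 3′ on the strand of the gene, with the match in capitals. They let the reader compare the window of Nfe2l2 itself with those of Gclm, Txnrd1 and Srxn1. Where the capitals begin with GC, the core lies on the opposite strand. For Srxn1 the capitals mark the second form, since its match to the core lay 28 bases after the start, on the opposite strand, and is not shown.
Nfe2l2, chr2:75704870-75704913, minus strand, match starting 240 bases before the start: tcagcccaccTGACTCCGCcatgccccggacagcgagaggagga
Gclm, chr3:122245398-122245456, plus strand, match starting 134 bases before the start: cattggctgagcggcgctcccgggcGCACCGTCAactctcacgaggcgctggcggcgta
Txnrd1, chr10:82859089-82859147, plus strand, match starting 92 bases before the start: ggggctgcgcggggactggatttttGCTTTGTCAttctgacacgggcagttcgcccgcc
Srxn1, chr2:152105454-152105512, plus strand, match starting 45 bases before the start: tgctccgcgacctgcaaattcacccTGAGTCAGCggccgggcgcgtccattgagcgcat
The fragment of Txnrd1 lay before an inner start of the gene, within its annotated span and outside its annotated exons. A match is a description of letters and does not show that a factor was bound.

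The libraries held between 27108562 and 58218009 counts. Levels are given as CPM, counts scaled to the library total and normalised by edgeR's TMM method over the 10 libraries, and levels of different genes are compared as FPKM, which also scales for length. Of the osteoblast lineage markers, Col1a1 was between 3345 and 11530 CPM in the 10 libraries, and of the 12 markers 5 were called higher in treated cells and 1 lower. Alpl, alkaline phosphatase, had 0 CPM at 0 μM on day 5, 0.0632 CPM on day 10 and between 16.3 and 65.0 CPM in treated cells. Blood cell markers summed to at most 0.297 CPM in any library, and Hbb-bs had no counts. Of 8 macrophage markers, 5 passed the filter, of which 2 were called higher and 1 lower. Their summed level was between 35.8 and 67.9 CPM in treated cells and between 28.02 and 40.6 CPM at 0 μM, mostly from Lyz2, and the defining markers Ptprc and Adgre1 were at or below 0.25 CPM in every library. Endothelial, skeletal muscle and adipocyte markers were low in all libraries. Of 5 endothelial markers 4 passed and 3 were called higher (sum 5.53 to 8.04 CPM in treated cells, 1.61 to 1.75 CPM at 0 μM), and of 8 muscle markers 5 passed and 2 were called higher (sum 5.28 to 9.69 and 2.18 to 2.54 CPM). Of 7 adipocyte markers 4 passed and 1 was called higher (sum 2.63 to 5.70 and 1.90 to 2.14 CPM), and of 5 chondrocyte markers 3 passed and none was called (sum 83.2 to 161.2 and 90.6 to 103.2 CPM). The part of these marker differences in the results was not tested. Library B-4 stood apart from its label: over 16794 genes its Spearman correlation was between 0.960 and 0.964 with the treated libraries and between 0.942 and 0.946 with those at 0 μM, across genes, which are not independent replicates. Its mean Euclidean distance in log2 CPM was 143.3 to treated libraries and 159.9 to those at 0 μM. Of the 5 osteoblast markers called higher, Runx2 (193.5 CPM) and Sparc (2842 CPM) in B-4 lay within the treated range. Alpl (3.48 CPM), Ibsp (9.04 CPM) and Sp7 (10.4 CPM) in B-4 lay below that range, though above both libraries at 0 μM. The untreated libraries, whose labels give no time, were left out of the main tests, are described separately and serve as controls only in the alternatives given with them.

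Compared to 0 μM, 5 of the 10 genes were downregulated in treated cells, namely Nqo1, Gsta4, Txnrd1, Gclm and Hmox1. None was upregulated. Genes counted as called when the log2 fold change passed 1 in size with an adjusted p below 0.05 in edgeR's quasi-likelihood test, where day entered as a covariate and p-values were adjusted by Benjamini-Hochberg over all genes tested. By the same rule 5.98% of the 16794 genes tested were called lower and 13.4% higher. Dropping the fold limit, all 10 members passed, 8 lower and 2 higher, against 20.8% of all genes lower and 22.6% higher. The median log2 fold change was -0.82 over the members and 0.05 over all genes tested. As the members were chosen with earlier results known, the shares of all genes here and below are descriptions, not a test. In bulk RNA, fewer cells that express a gene and less of its RNA per cell cannot be told apart.

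**Figure D1:**
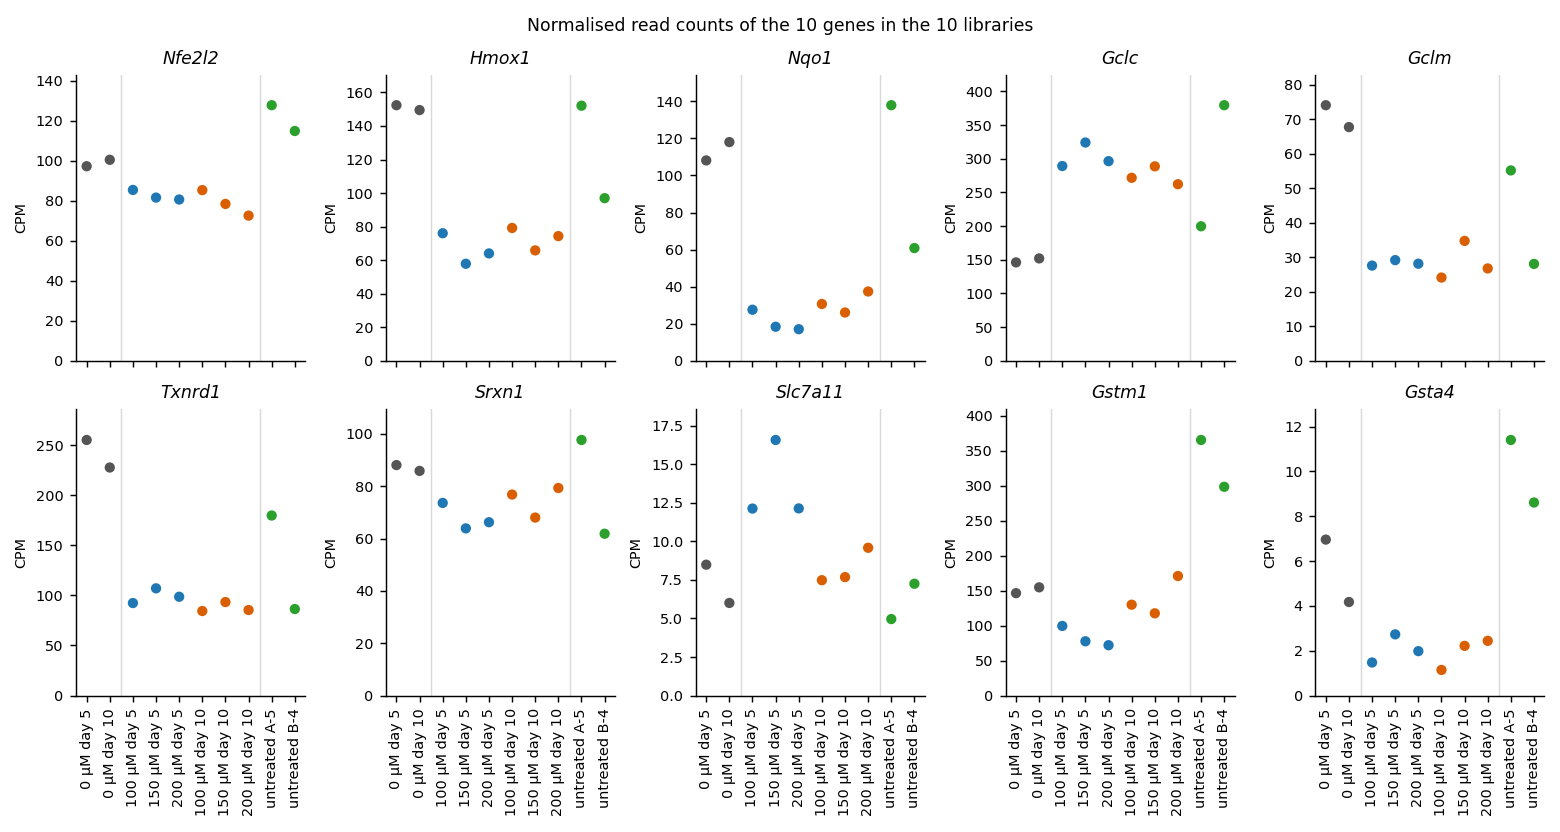
Normalised read counts (CPM, vertical axes from 0, a separate scale for each gene) of the 10 genes in each of the 10 libraries (horizontal axes), with 1 point per library: grey for 0 μM, blue for treated on day 5, orange for treated on day 10 and green for untreated. For Hmox1 the 6 treated libraries sit between 57.9 and 79.2 CPM, below 149.5 and 152.4 CPM at 0 μM, while for Gclc they sit between 262.2 and 324.1 CPM, above 146.1 and 152.0 CPM.

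The regulator itself differed little between treated cells and those at 0 μM. Nfe2l2 (ENSMUSG00000015839, chromosome 2, 75675513 to 75704641) was at 97.3 CPM on day 5 and 100.5 CPM on day 10 without β-ecdysterone. In treated cells it was between 72.6 and 85.4 CPM with a median of 81.1 CPM. All 6 treated libraries lay below both at 0 μM, and on both days the library at 200 μM was the lowest. The log2 fold change of Nfe2l2 was -0.30 (SE 0.08, adjusted p = 0.0154), within the fold limit. With either control library left out the adjusted p no longer passed (0.0534 without that of day 5 and 0.169 without that of day 10).

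Among 10392 other named genes averaging 5 CPM or more, those whose profile over the 10 libraries was most like that of Nfe2l2 were Vps16, Aktip and Ago2. Their root mean square differences from Nfe2l2 in centred log2 CPM were 0.06, 0.06 and 0.07.

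Around Nrf2, 15 genes for its control were listed, including its inhibitor Keap1, the competing repressor Bach1 and the small Maf partners. All 15 passed the filter. Only Maff was called, and no gene of this list was called higher. The median log2 fold change of the list was -0.23. Maff, a small Maf protein, was at 10.9 and 11.3 CPM at 0 μM and between 1.42 and 3.08 CPM in treated cells. Its log2 fold change was -2.27 (SE 0.25, adjusted p = 9.97e-05). Its groups did not overlap, and B-4 at 2.98 CPM lay within the treated range. The related Mafk had a log2 fold change of -0.72 (adjusted p = 0.00076) and Mafg one of 0.11 (adjusted p = 0.498), neither past the limits for a call. Keap1 differed by -0.27 (adjusted p = 0.037) and Bach1 by -0.40 (adjusted p = 0.0214) on the log2 scale, so the inhibitor, the repressor and Nfe2l2 all had slightly lower transcript levels than at 0 μM. In A-5 and B-4, Keap1 was at 44.3 and 38.05 CPM, below every treated library (50.5 to 59.9 CPM). Bach1, at 60.1 and 42.2 CPM there, lay above every treated library.

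Heme oxygenase 1 (Hmox1, ENSMUSG00000005413, chromosome 8, 75093621 to 75100589) breaks heme down to biliverdin, iron and carbon monoxide. Hmox1 was at 152.4 CPM on day 5 and 149.5 CPM on day 10 at 0 μM. In treated cells it was between 57.9 and 79.2 CPM, with a median of 70.1 CPM. No treated library reached the control level on either day. The log2 fold change of Hmox1 was -1.13 (SE 0.11, adjusted p = 4.67e-05), close to the fold limit. Tested against a log2 fold change of 1 by glmTreat, which asks for evidence beyond that limit, Hmox1 was not called (adjusted p = 0.315). The genes most like Hmox1 over the 10 libraries were Abca7, Gramd4 and Tcirg1, at root mean square differences of 0.12, 0.12 and 0.12 in log2 CPM.

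Of 12 listed genes for iron and heme, 11 passed the filter. Among them 3 were called lower and none higher, with a median log2 fold change of -0.73. The 3 were Slc40a1, which encodes the iron exporter ferroportin (log2 fold change -1.91, at most 1.06 CPM in any library), the ferritin light chain Ftl1 (-1.29) and the biliverdin reductase Blvra (-1.07). Ftl1 was at 1360 and 1350 CPM at 0 μM and between 512.4 and 642 CPM in treated cells. A gene of the step after Hmox1 in heme breakdown and an iron storage subunit were thus called in the same direction as Hmox1. The other listed biliverdin reductase, Blvrb, was at 31.2 and 36.7 CPM at 0 μM and was not called (log2 fold change -0.16, adjusted p = 0.271).

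NAD(P)H quinone dehydrogenase 1 (Nqo1, ENSMUSG00000003849, chromosome 8, 107388225 to 107403206) reduces quinones to hydroquinones. It showed the largest fold change of the 10 genes. At 0 μM Nqo1 was at 108.1 CPM on day 5 and 118.0 CPM on day 10. In treated cells on day 5 it was at 27.5 CPM with 100 μM, 18.4 CPM with 150 μM and 17.0 CPM with 200 μM. On day 10 Nqo1 was at 30.6, 26.0 and 37.4 CPM with 100, 150 and 200 μM. The order of the doses differed between the days, and the highest treated library was still far below the lower control. Nqo1 fell by 2.16 on the log2 scale (SE 0.18, adjusted p = 1.88e-05), a 4.46-fold difference.

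Of 22 listed genes for detoxification and efflux, all passed the filter, with 2 called higher, 2 called lower and a median log2 fold change of -0.03. The 3 with the largest fold changes went both ways. Aldh1a1, a retinaldehyde dehydrogenase, rose from 3.91 and 3.98 CPM to between 172.9 and 227.8 CPM (log2 fold change 5.55, adjusted p = 5.99e-08), and was at 4.34 CPM in A-5 and 176.4 CPM in B-4. Aldh3a1, an aldehyde dehydrogenase, fell from 15.4 and 14.4 CPM to between 0.906 and 2.48 CPM (log2 fold change -3.36, adjusted p = 3.88e-05), and was at 15.5 CPM in A-5 and 3.01 CPM in B-4. Ugt1a7c, a UDP-glucuronosyltransferase, had a log2 fold change of 1.66 (adjusted p = 0.000241). In B-4 it was at 36.1 CPM, above every treated library. The Ugt1a transcripts share their last exons, so their reads may have been split between them.

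Glutamate-cysteine ligase makes the first, rate-limiting product of glutathione synthesis. Its catalytic subunit is Gclc (ENSMUSG00000032350, chromosome 9, 77754535 to 77794485) and its modifier subunit is Gclm (ENSMUSG00000028124, chromosome 3, 122245557 to 122270732). Their transcripts differed from 0 μM in opposite directions. Gclc was at 146.1 CPM on day 5 and 152.0 CPM on day 10 at 0 μM. In treated cells Gclc was between 262.2 and 324.1 CPM, with a median of 289 CPM, and every treated library lay above both controls. Its log2 fold change was 0.94 (SE 0.10, adjusted p = 6.68e-05), just inside the fold limit, so Gclc was not called. It was called without the library at 0 μM on day 10 (log2 fold change 1.03, adjusted p = 0.00092).

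Gclm was at 74.0 CPM on day 5 and 67.7 CPM on day 10 at 0 μM. In treated cells it was between 24.1 and 34.7 CPM, with a median of 27.8 CPM. The groups did not overlap. Gclm fell by 1.32 on the log2 scale (SE 0.12, adjusted p = 3.03e-05). In the annotation an antisense transcript and a pseudogene, neither with a row in the table, overlap exons of Gclm, and whether counting used strand is not given in the sources used here.

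On the FPKM scale the subunit transcripts moved apart. At 0 μM Gclc was at 39.0 and 40.4 FPKM and Gclm at 12.3 and 11.3 FPKM. In treated cells Gclc was between 65.1 and 87.5 FPKM and Gclm between 3.57 and 5.44 FPKM. The ratio of Gclc to Gclm FPKM was 3.18 on day 5 and 3.56 on day 10 at 0 μM, and between 13.2 and 18.3 in treated cells, with a median of 17.0. Every treated ratio was above both controls. The ratio is a description, with no test of its own.

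**Figure D2:**
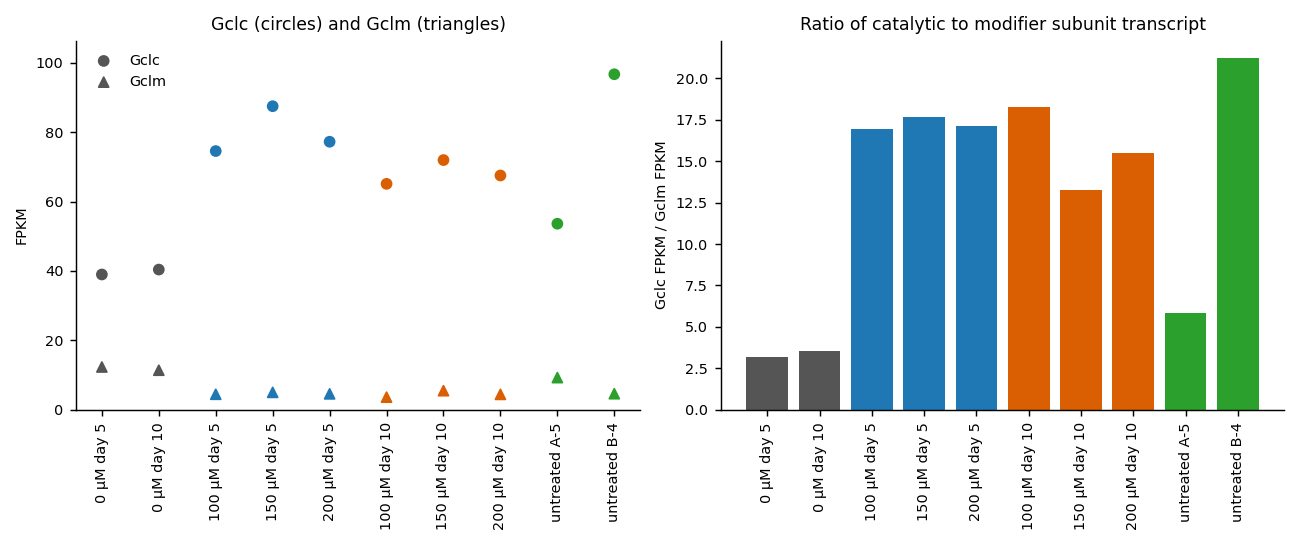
Left, FPKM of Gclc (circles) and Gclm (triangles) by library, and right, the ratio of the Gclc to the Gclm FPKM as bars from 0, with grey for 0 μM, blue for treated on day 5, orange for treated on day 10 and green for untreated. The ratio is 3.18 and 3.56 at 0 μM, between 13.2 and 18.3 in treated cells, 5.82 in untreated A-5 and 21.2 in untreated B-4.

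Slc7a11 (ENSMUSG00000027737, chromosome 3, 49892526 to 50443614) is the cystine carrier that feeds glutathione synthesis, together with its heavy chain Slc3a2. Slc7a11 was at 8.49 CPM on day 5 and 6.01 CPM on day 10 at 0 μM. In treated cells on day 5 it was at 12.1, 16.6 and 12.1 CPM with 100, 150 and 200 μM, and on day 10 at 7.48, 7.68 and 9.59 CPM. Each treated library lay above the control of its own day, but those of day 10 at 100 and 150 μM lay below the control of day 5, so the groups overlapped. The log2 fold change of Slc7a11 was 0.57 (SE 0.18, adjusted p = 0.0256), within the fold limit, and the adjusted p was 0.198 without the control of day 5 and 0.0861 without that of day 10. It was also above 0.05 with library totals (0.0533), without the day covariate (0.144) and with limma on log2(FPKM + 1) or log2(FPKM + 0.1) (0.12 and 0.136). Slc3a2 had a log2 fold change of 0.80 (adjusted p = 0.00274), also within it.

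In the wider list for glutathione synthesis and use, 21 of 25 genes passed the filter, of which 3 were called higher and 1 lower. Their median log2 fold change was 0.32. The 3 largest were Ggt5, a gamma-glutamyltransferase (log2 fold change 3.57), Cbs, the cystathionine beta-synthase of cysteine supply (1.31), and Oplah, the 5-oxoprolinase that returns glutamate (1.11). Their levels were low, with at most 2.44 CPM for Cbs, 4.50 CPM for Oplah and 9.91 CPM for Ggt5 in any library. Cbs was near the limit (SE 0.473, adjusted p = 0.0468). Its lowest treated library, at 0.429 CPM, lay below both controls (0.4323 and 0.4425 CPM), so its groups overlapped. The gene called lower was Gpx1, a glutathione peroxidase (log2 fold change -1.004, adjusted p = 0.00152). Glutathione synthetase, Gss, differed by 0.44 (adjusted p = 0.0186) and glutathione reductase, Gsr, by -0.54 (adjusted p = 0.000829) on the log2 scale, neither past the fold limit.

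Thioredoxin reductase 1 (Txnrd1, ENSMUSG00000020250, chromosome 10, 82833951 to 82897712) uses NADPH to keep thioredoxin reduced. Txnrd1 was at 255.1 CPM on day 5 and 227.6 CPM on day 10 at 0 μM. In treated cells it was between 84.4 and 107 CPM with a median of 92.8 CPM. The treated libraries lay close together and far below both controls. Txnrd1 fell by 1.38 on the log2 scale (SE 0.08, adjusted p = 2.85e-06), with the smallest error of the 10 genes. Of the members, Gclm and Txnrd1 had the most similar profiles over the 10 libraries, at a root mean square difference of 0.12 in centred log2 CPM. Txnrd1 was the second nearest to Gclm of the 10392 candidate genes, after a gene at 0.10 that is not a member. In the other direction Gclm was not among the 3 genes nearest to Txnrd1, which lay at 0.11 to 0.12.

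Sulfiredoxin (Srxn1, ENSMUSG00000032802, chromosome 2, 152105516 to 152111376) repairs overoxidised peroxiredoxins. Srxn1 was at 88.1 and 85.9 CPM at 0 μM on days 5 and 10. In treated cells it was between 63.9 and 79.3 CPM with a median of 70.8 CPM. The groups did not overlap, although the highest treated library came near the lower control. The log2 fold change of Srxn1 was -0.30 (SE 0.09, adjusted p = 0.0286), within the fold limit and of the same size as that of Nfe2l2. Its adjusted p was above 0.05 when either control or either of the libraries at 150 and 200 μM on day 5 was left out, at most 0.28 without the control of day 5.

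All 14 listed genes of the thioredoxin system passed the filter, with 1 called higher, none lower and a median log2 fold change of 0.12. The called gene was Sesn1, a sestrin, with a log2 fold change of 1.94 (adjusted p = 5.32e-05), between 216.6 and 381.4 CPM in treated cells and at 320 CPM in B-4. Thioredoxin itself, Txn1, was at 204 and 205.7 CPM at 0 μM and between 111.3 and 125.1 CPM in treated cells. Its log2 fold change was -0.82 (SE 0.08, adjusted p = 3.31e-05), within the fold limit, so the lower level of the reductase was accompanied by a lower level of its substrate's transcript.

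NADPH is the reductant of Txnrd1, Nqo1 and glutathione reductase. All 10 listed genes for its supply passed the filter (1 gene had a second row without counts), of which 1 was called higher and 2 lower, with a median log2 fold change of -0.53. Pgd, of the pentose phosphate pathway, fell from 139.4 and 152.8 CPM to between 47.1 and 64.4 CPM (log2 fold change -1.42, adjusted p = 1.82e-05). Me1, the cytosolic malic enzyme, had a log2 fold change of -1.01 (adjusted p = 7.12e-05). Idh2, the mitochondrial isocitrate dehydrogenase, had one of 1.24 (adjusted p = 0.000972), with 211.2 to 392.9 CPM in treated cells and 351.1 CPM in B-4.

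Gstm1 (ENSMUSG00000058135, chromosome 3, 108012255 to 108017973) and Gsta4 (ENSMUSG00000032348, chromosome 9, 78182774 to 78209349) are glutathione transferases, which couple glutathione to electrophiles, and Gsta4 prefers products of lipid peroxidation. Gsta4 lies 388.3 kb beyond Gclc on the same strand. The transferases belong to families of similar sequence, so the counts of single members are uncertain to the extent that the counting split or dropped shared reads.

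Gstm1 was at 146.3 CPM on day 5 and 154.6 CPM on day 10 at 0 μM. In treated cells on day 5 it was at 99.4, 77.5 and 71.9 CPM with 100, 150 and 200 μM. On day 10 Gstm1 was at 129.8, 117.5 and 170.8 CPM. Treated cells were below the control on day 5, whereas on day 10 the library at 200 μM was above both controls, so the groups overlapped. The log2 fold change of Gstm1 was -0.51 (SE 0.19, adjusted p = 0.0474), within the fold limit and with 5 of 6 libraries below the control of their day. Without the day covariate the adjusted p was 0.217. Without the control of day 5 the log2 fold change was -0.15 (adjusted p = 0.637), and the adjusted p was between 0.0705 and 0.0918 without any single one of 4 treated libraries (150 and 200 μM on day 5, 100 and 150 μM on day 10).

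Gsta4 was at 6.96 CPM on day 5 and 4.17 CPM on day 10 at 0 μM. In treated cells it was between 1.14 and 2.73 CPM with a median of 2.10 CPM, from 29 counts in the thinnest library. The groups did not overlap. Gsta4 fell by 1.44 on the log2 scale (SE 0.31, adjusted p = 0.00399), with the largest error of the 10 genes. Without the library at 0 μM on day 5 the log2 fold change was -1.09 and Gsta4 was no longer called (adjusted p = 0.0846), nor was it by glmTreat (adjusted p = 0.212).

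Of 24 other glutathione transferase genes, 19 passed the filter, with 1 called higher, 1 lower and a median log2 fold change of 0.16. Both called genes were at low levels. Gstk1 (log2 fold change -2.95) was at most 1.04 CPM and Gsta3 (2.16) at most 0.762 CPM in any library. Of the other Gstm genes, Gstm2 differed by -0.17 (adjusted p = 0.575) and Gstm5 by 0.10 (adjusted p = 0.591) on the log2 scale. The remaining Gstm genes that passed the filter, Gstm4, Gstm6 and Gstm7, had log2 fold changes of 0.15, 0.16 and 0.57 with adjusted p of 0.87, 0.735 and 0.263. Gstm3, Gsta1 and Gsta2 did not pass the filter.

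For superoxide and hydrogen peroxide, 10 of 11 listed genes passed, with 2 called higher, none lower and a median log2 fold change of 0.20. Duox2, a dual oxidase, had a log2 fold change of 2.67 (adjusted p = 0.00794) and Sod3, the extracellular superoxide dismutase, one of 1.16 (adjusted p = 0.00451). Duox2 was low, at 0.393 and 0.316 CPM at 0 μM and between 1.005 and 7.365 CPM in treated cells. Dropping the fold limit, 2 genes of the list were higher, again Duox2 and Sod3, and 3 were lower. The 3 were Sod2 (log2 fold change -0.77, adjusted p = 0.000162), Cat (-0.51, adjusted p = 0.00158) and Sod1 (-0.32, adjusted p = 0.00794).

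**Figure D3:**
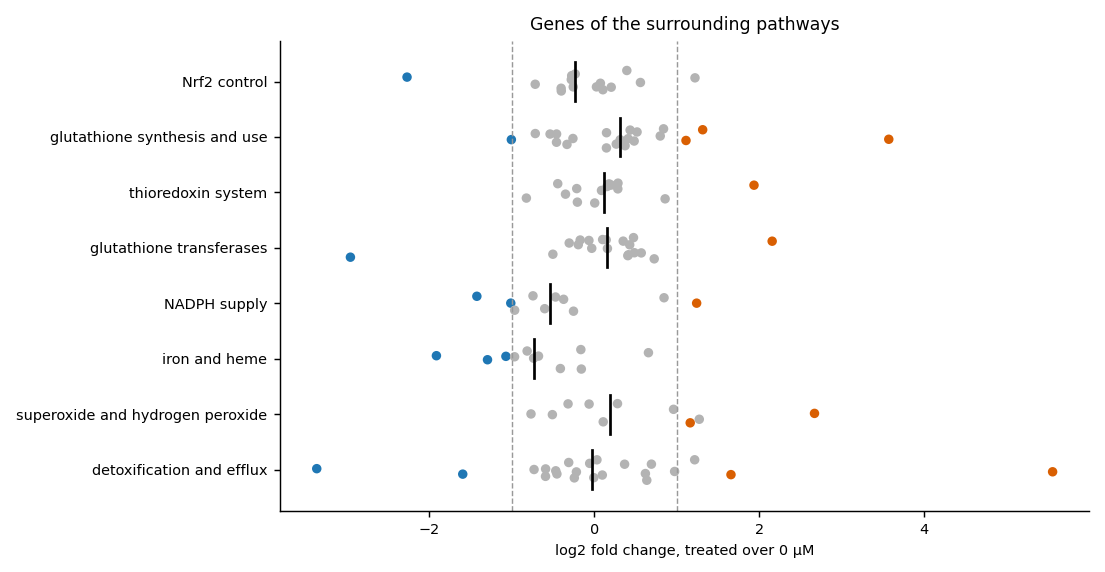
Log2 fold change of treated cells over 0 μM (horizontal axis) for each gene that passed the filter, in 8 lists of genes around the members (rows). Orange points were called higher, blue points lower and grey points not called, black bars are list medians, and dashed lines mark the fold limit of 1. The medians lie between -0.73 for iron and heme and 0.32 for glutathione synthesis and use.

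Across the 10 members, 7 had all 6 treated libraries below both controls, and 1, Gclc, had all 6 above. Among all genes tested, 25.2% lay wholly below and 27.5% wholly above.

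The order of the genes by level per length changed. At 0 μM the mean levels were 108.6 FPKM for Gstm1, 87.6 FPKM for Hmox1, 76.0 FPKM for Txnrd1 and 66.3 FPKM for Nqo1. Below these came Gclc at 39.7 FPKM, Nfe2l2 at 36.4 FPKM, Srxn1 at 28.2 FPKM, Gclm at 11.8 FPKM, Gsta4 at 5.18 FPKM and Slc7a11 at 0.718 FPKM. No neighbours in this order overlapped between the control libraries. In treated cells Gstm1 (75.9 ± 24.0 FPKM, SD, n = 6) and Gclc (74.0 ± 7.98 FPKM, SD, n = 6) stood highest and overlapped. Hmox1 followed at 38.7 ± 3.70 FPKM (SD, n = 6) and was separate from the next gene. Nfe2l2 (28.5 FPKM) and Txnrd1 (27.8 FPKM) overlapped each other, as Txnrd1 did with Srxn1 (22.2 FPKM) and Srxn1 with Nqo1 (14.7 FPKM). Nqo1 thus moved from the fourth to the seventh place and Gclc from the fifth to the second. Gclm at 4.54 FPKM was separate from its neighbours, whereas Gsta4 at 1.79 FPKM and Slc7a11 at 1.05 FPKM overlapped.

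Fold changes for each day came from 1 edgeR fit with 4 groups over both days, whose spread rests on the treated libraries and assumes that the lone control of a day varies like them. In that fit 5 members were called lower and 1 higher on day 5, against 4.35% and 8.93% of 17799 genes. On day 10, 4 were called lower and none higher, against 5.78% and 11.2%. The 4 of day 10 were Hmox1, Nqo1, Gclm and Txnrd1. Txnrd1 had log2 fold changes of -1.38 on day 5 and -1.38 on day 10. Gclc was called higher on day 5 (1.04, adjusted p = 0.000917) and Gsta4 lower on day 5 (-1.75, adjusted p = 0.013), while on day 10 their values were 0.84 and -1.09 (adjusted p = 0.00175 and 0.0793). The difference between the days itself was called for no member and for 0.0112% of all genes, with 1464 of 17799 genes at an unadjusted p under 0.05. It was nearest to a call for Gstm1, at 0.68 on the log2 scale (SE 0.32, unadjusted p = 0.0616, adjusted p = 0.632).

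**Figure D4:**
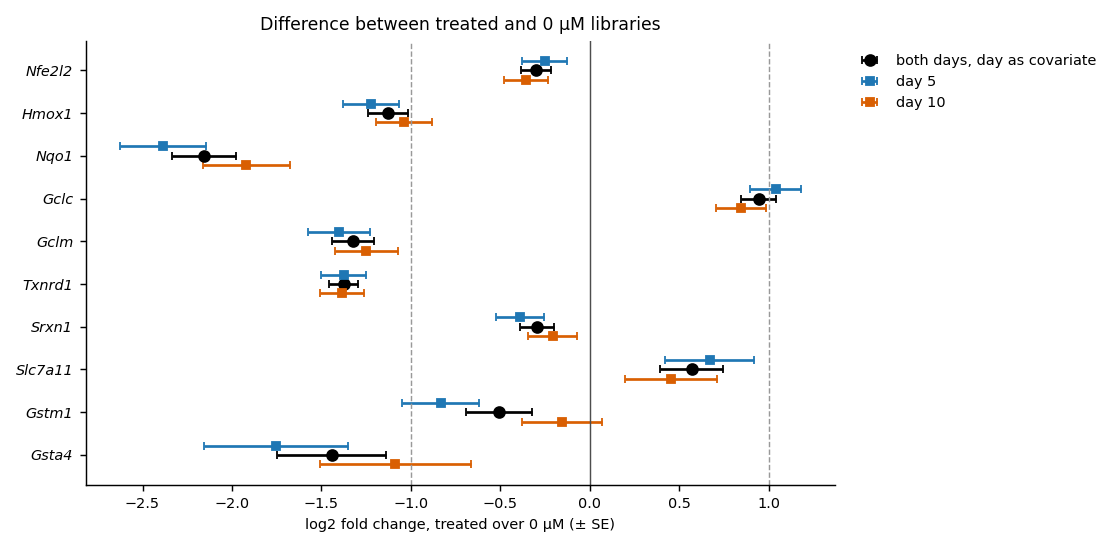
Log2 fold change of treated cells over 0 μM (horizontal axis) for each of the 10 genes (rows), with bars of ± 1 SE, for both days together (black circles), day 5 (blue squares) and day 10 (orange squares). Dashed lines mark the fold limit of 1. Nqo1 lies farthest to the left at -2.16 and Gclc farthest to the right at 0.94.

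Within treated cells, day 10 was compared with day 5. No member was called, against 1.05% of the 16020 genes tested. Without the fold limit, Gstm1 passed (log2 difference 0.76, SE 0.16, adjusted p = 0.042), against 2.8% of all genes. Its adjusted p was between 0.0295 and 0.213 with 1 library left out, highest without that at 200 μM on day 5. With library totals it was 0.0573, above the limit. It was 0.00035 with DESeq2, 0.000407 without a filter and 0.0387 with dose as a factor. Gstm1 was between 71.9 and 99.4 CPM on day 5 and between 117.5 and 170.8 CPM on day 10, with no overlap. Slc7a11 was between 12.1 and 16.6 CPM on day 5 and between 7.48 and 9.59 CPM on day 10, also without overlap, with a log2 difference of -0.72 (SE 0.17, adjusted p = 0.0624). Nqo1 was at 20.97 ± 5.72 CPM on day 5 and 31.4 ± 5.71 CPM on day 10 (SD, n = 3), and its days overlapped, with a log2 difference of 0.59 in edgeR (SE 0.19, adjusted p = 0.142). For Slc7a11 the adjusted p was 0.00325 with DESeq2, 0.0117 without a filter, 0.0381 with library totals and 0.0621 with dose as a factor. For Nqo1 these values were 0.0434, 0.0206, 0.176 and 0.0955. With 1 library left out they lay between 0.0704 and 0.174 for Slc7a11 and between 0.0387 and 0.446 for Nqo1.

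No trend with dose was called for any member between 100 and 200 μM, by edgeR with day as a covariate (adjusted p = 0.997 or above for all 10). Of all 16664 genes tested 0.006% were called, and 391 had an unadjusted p under 0.05. The slopes of the members ranged from -0.18 for Nqo1 to 0.74 for Gsta4 in log2 per 100 μM, with SEs between 0.11 and 0.40. Such errors could hide a sizeable slope, most of all for Gsta4 (SE 0.40), whose estimate was upward. For Nfe2l2 the slope was -0.16 (SE 0.11).

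The untreated libraries were compared without a test. In A-5 each of the 10 genes was nearer, as a log ratio, to the mean at 0 μM than to the mean of treated cells. In B-4 this was so for 5 genes only, and Hmox1, Gclc, Gclm, Txnrd1 and Srxn1 were nearer to treated cells. Gclm was at 55.1 CPM in A-5 and 28.1 CPM in B-4, the latter within the treated range. Gclc was at 199.7 CPM in A-5 and 379.5 CPM in B-4, the latter above every other library. Both libraries differed from the dose series for the transferases. Gstm1 was at 365.2 and 298.3 CPM and Gsta4 at 11.4 and 8.61 CPM in A-5 and B-4, above every library at 0 μM or with β-ecdysterone. Nfe2l2 was also highest in these libraries, at 127.8 and 114.9 CPM.

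**Figure D5:**
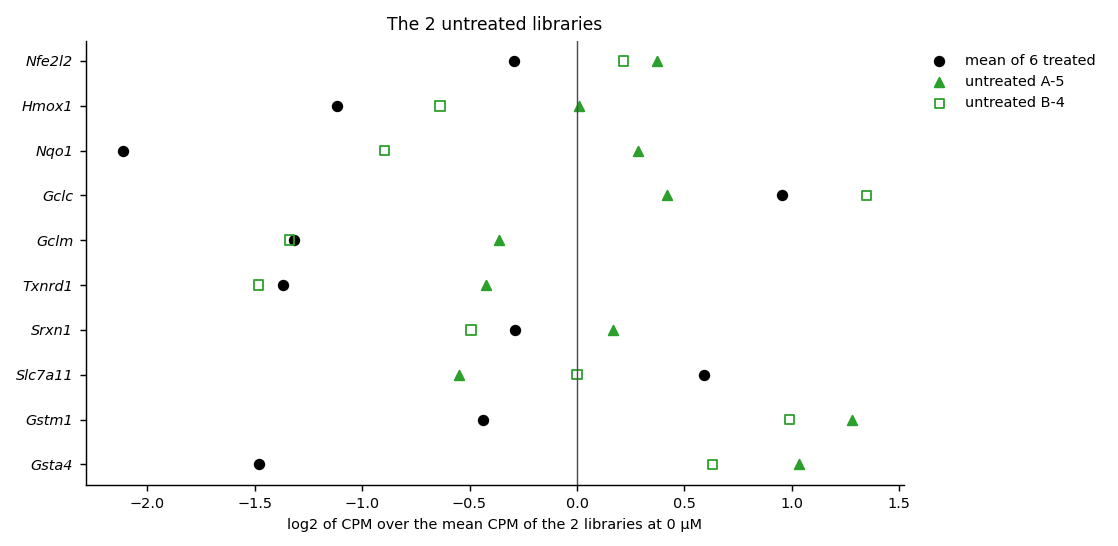
Log2 of the CPM over the mean CPM of the libraries at 0 μM (horizontal axis) for the 10 genes (rows), with black circles for the mean of the 6 treated libraries, green triangles for untreated A-5 and open green squares for untreated B-4. For Gclm, B-4 lies at -1.34 and A-5 at -0.36, and for Gstm1 they lie at 0.99 and 1.28.

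The choice of control therefore bears on these results. When the untreated libraries replaced those at 0 μM, Gclc had a log2 fold change of -0.01 (adjusted p = 0.971). Gclm (-0.55, adjusted p = 0.1), Txnrd1 (-0.51, adjusted p = 0.122) and Hmox1 (-0.84, adjusted p = 0.00912) were then not called, whereas Gstm1 was called lower (-1.58, adjusted p = 0.00588). Nqo1 and Gsta4 were called lower against either control. With the untreated libraries added to those at 0 μM, Hmox1, Gclm and Txnrd1 had log2 fold changes of -0.98, -0.98 and -0.997, just within the fold limit (adjusted p = 0.000809, 0.0084 and 0.00992). Nfe2l2 was at -0.59 with the untreated libraries alone (adjusted p = 0.00344) and -0.45 with them added (adjusted p = 0.00586). Both values lay within the fold limit and were larger in size than against 0 μM alone.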

How the data were processed

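Messenger RNA of 10 libraries was enriched with oligo(dT) and prepared with the TruSeq kit by the authors. They deposited 1 table with raw read counts and FPKM values for every gene, the latter of which scale for length and library size. The submitters' processing notes name HISAT2 2.0.4 and GATK 3.2-2, while the counting program and the genome build are not given in the sources used here. The authors' own fold changes and p-values in the table were not used. Library totals and the filter set the precision, and each value covers counting error and the spread between libraries only.

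Counts were analysed in R 4.3.3 with edgeR 4.0.16 (filterByExpr, TMM, glmQLFTest, Benjamini-Hochberg adjustment). The 6 treated libraries were compared with the 2 at 0 μM with day as a covariate, and days, dose and their interaction with treatment were tested as described beside each result. Calls needed both a log2 fold change past 1 and an adjusted p below 0.05, and for dose and interaction the adjusted p alone. Scripts were tested on simulated data. Alternatives were DESeq2 1.42.0, library totals, DESeq2 size factors, no filter, other covariates, glmTreat, limma 3.58.1 on log2(FPKM + 1) or log2(FPKM + 0.1), other control libraries and each library left out in turn. A covariate for depth (libraries split at 40000000 counts) was added after seeing the data. Profiles were compared as log2 CPM with a prior count of 2.

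Named genes were all members, the 3 called genes with the largest fold change of each pathway list, genes tied to a member (Keap1, Bach1, small Mafs, Slc3a2, Gss, Gsr, Txn1, other Gstm and Gsta genes) and the 3 genes most like Nfe2l2 and Hmox1. Gpx1, Blvrb, Sod1, Sod2, Cat and the osteoblast markers compared for B-4 were named after their values were seen. The members and lists were chosen with earlier results of these data known. Positions were taken from GENCODE M21 (GRCm38) by Ensembl identifier.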

Additional observations from a re-analysis of the deposited data

How the results depend on the processing

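Against 0 μM, the direction of each of the 10 genes was kept in all alternatives except Gclc when the untreated libraries replaced those at 0 μM, at -0.013. Gene counts called higher and lower moved to 1142 and 428 with glmTreat, 526 and 612 with limma on log2(FPKM + 1), 1078 and 460 with the untreated libraries as the only controls, and 1286 and 453 with them added. Leaving out 1 library gave 1590 to 2281 genes higher and 765 to 1010 lower. For the days, the counts were 218 and 60 with DESeq2 and 274 and 72 without a filter, the lower count was 72 with library totals, and leaving out 1 library gave 18 to 186 higher and 0 to 38 lower. These were 18 and 0 without the library at 200 μM on day 5 and 27 and 3 without that at 200 μM on day 10. The day difference of Gclm was -0.11 with library totals and ranged from -0.15 to 0.13 with 1 library left out, and that of Gsta4 from -0.28 to 0.19. For dose, DESeq2 called 1 gene lower, no gene was called higher without the day covariate, and leaving out 1 library gave 0 to 1 higher and 0 to 0 lower. Dose slopes changed sign with library totals for Gclc (0.032) and Gstm1 (0.024), and for Gstm1 without the day covariate (0.086). With 1 library left out they ranged from -0.65 to 0.19 for Nqo1, -0.10 to 0.071 for Gclc, -0.13 to 0.24 for Gclm, -0.04 to 0.14 for Txnrd1, -0.19 to 0.054 for Srxn1 and -0.43 to 0.28 for Gstm1. For the difference between days, DESeq2 called 53 genes higher and 25 lower, and leaving out 1 library gave 0 to 5 and 0 to 4, with ranges of -0.053 to 0.047 for Txnrd1 and -0.011 to 0.27 for Gclm. The cause of these shifts was not tested. At 0 μM there was 1 library per day, so a control's own variation could not be separated from that of its day.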
